A study of Homo sapiens with 2 samples.

Results

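The major histocompatibility complex (MHC) of chromosome 6 was taken as 3 neighbouring regions on hg19, defined by position alone: class I from 29690001 to 31480000, class III from 31480001 to 32360000 and class II from 32360001 to 33120000. They cover 1790, 880 and 760 bins of 1 kb, or 3430 bins in all, of which 3269 held a read in at least 1 library. The whole series listed 2736177 bins on chromosomes 1 to 22 and X. The data are H3K27me3 ChIP-seq of HCT116 cells, a human line established from colon cancer for which the labels name no treatment. They form 1 group of 2 libraries, labelled rep1 and rep2. No input library was used here, and nothing in the labels says whether the replicates came from separate cultures. Replicate 1 held 53187504 reads and replicate 2 held 97031399, of which 97047 and 177988 fell in the MHC.

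H3K27me3 is the repressive histone mark that Polycomb repressive complex 2 (PRC2) writes, and it lies over genes that a cell type keeps silent, often in broad domains. Class I genes such as HLA-B and HLA-C encode the molecules by which nearly all nucleated cells show peptides from inside the cell to CD8 T cells. Class II genes such as HLA-DRA, HLA-DQA1 and HLA-DPB1 encode molecules that professional antigen-presenting cells use to show peptides to CD4 T cells, and most epithelial cells make them only after interferon-gamma induces the transactivator CIITA. Class III is a gene-dense stretch without antigen-presenting molecules, with genes of the complement system (C2, CFB, C4A, C4B), of the tumour necrosis factor family (TNF, LTA, LTB) and of heat shock proteins (HSPA1A, HSPA1B, HSPA1L). The MHC is also rich in near-identical gene copies and in haplotypes that differ in sequence and gene content, and both limit where short reads can be placed.

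No gene is assigned to a bin, because no hg19 positions of genes were at hand. In the gene table, which is on GRCh38, the listed class I genes stand in the order HLA-F, HLA-G, HLA-E, HLA-C, HLA-B, MICA and MICB. The class II genes follow the order BTNL2, HLA-DRA, HLA-DRB5, HLA-DRB1, HLA-DQA1, HLA-DQB1, HLA-DQA2, HLA-DQB2, HLA-DOB, TAP2, PSMB8, TAP1, PSMB9, HLA-DMB, HLA-DMA, BRD2, HLA-DOA, HLA-DPA1 and HLA-DPB1. TAP1 and TAP2 carry peptides into the endoplasmic reticulum and PSMB8 and PSMB9 are subunits of the immunoproteasome, so the class II stretch also holds genes of the class I pathway. From BTNL2 to HLA-DPB1 the table lists 33 genes, 19 of them protein-coding. It lists 139 from HLA-F to MICB, of which 49 are protein-coding and 59 pseudogenes, and 79 from LTA to NOTCH4, of which 55 are protein-coding.

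As examples, the promoter of 1 gene of each class is shown, from RefSeq on GRCh38.p14. Each sequence has 250 bases before and 50 after the start of the gene. CIITA acts through a module of X and Y boxes in class II promoters, of which class I promoters have a related form. Capitals mark the Y box core CTGATTGG and the core AGCAAC of the X box, each searched on both strands, and these 2 motifs share no overlap in the sequences shown. HLA-DRB1 (chr6:32589799-32590098, minus strand) encodes a class II beta chain, HLA-B (chr6:31357130-31357429, minus strand) a class I heavy chain and TNF (chr6:31575315-31575614, plus strand) the cytokine.
HLA-DRB1: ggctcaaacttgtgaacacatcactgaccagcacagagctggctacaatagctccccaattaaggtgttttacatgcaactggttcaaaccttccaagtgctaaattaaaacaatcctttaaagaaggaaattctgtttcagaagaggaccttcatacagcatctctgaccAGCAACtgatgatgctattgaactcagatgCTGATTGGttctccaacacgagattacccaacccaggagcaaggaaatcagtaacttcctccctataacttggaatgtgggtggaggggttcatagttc
HLA-B: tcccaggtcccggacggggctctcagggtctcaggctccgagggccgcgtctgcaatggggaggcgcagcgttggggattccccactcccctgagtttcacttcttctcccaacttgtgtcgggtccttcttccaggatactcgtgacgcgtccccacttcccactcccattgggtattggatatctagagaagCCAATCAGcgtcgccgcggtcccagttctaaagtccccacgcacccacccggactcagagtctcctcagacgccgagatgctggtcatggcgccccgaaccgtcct
TNF: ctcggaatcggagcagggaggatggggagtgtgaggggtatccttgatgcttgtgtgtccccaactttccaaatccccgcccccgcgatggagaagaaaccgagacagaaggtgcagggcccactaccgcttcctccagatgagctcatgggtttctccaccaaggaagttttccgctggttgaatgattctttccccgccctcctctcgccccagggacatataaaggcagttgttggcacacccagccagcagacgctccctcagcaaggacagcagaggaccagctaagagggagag
In HLA-DRB1 the X core began at position -79 and the Y core at -49 relative to the start. HLA-B held the Y core on the opposite strand, as CCAATCAG from -56, and no X core, and TNF held neither. Of the listed genes with a promoter in the table, 6 of 18 in class II, 4 of 6 in class I and 3 of 14 in class III held the Y core, against 3.97% of 35116 promoters. The X core was found in 7 of 18 class II, 0 of 6 class I and 0 of 14 class III genes, against 12.8% of all promoters, and both motifs together in 4, 0 and 0, against 0.558%. A gene counted for a motif if any of its promoter entries held it, whereas the percentages are shares of single promoter entries. The matches are of letters alone, on either strand, and whether any of them is a box on which CIITA acts was not tested. These letters are a description of the reference, and no H3K27me3 level can be set beside a promoter here because the bins are on hg19.

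Levels are reads per 1 kb bin divided by the mean of that library over its listed autosomal bins, where a bin is listed when it holds at least 1 read. This divisor was 22.002 reads for replicate 1, against 37.535 for replicate 2. Bins that were not listed counted as 0. Counting error at a level of 1 was 9.53% and 7.30% of the level in a 5 kb bin. The shallower library lists fewer bins, and its divisor was 1.10 times its mean over autosomal bins listed in either library, against 1.03 times in replicate 2. All 3 classes stood higher in replicate 2, by 1.07 times in class II, 1.08 times in class I and 1.07 times in class III. With both libraries scaled over autosomal bins listed in either of them, these ratios were 1.00, 1.01 and 1.00, and the SDs between the libraries were 0.00357, 0.00796 and 0.000609. The SDs given for levels below therefore mostly hold this difference of scale.

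The classes differed in H3K27me3, in the order class II, class I, class III. Class II averaged 2.10 in the first library and 2.26 in the second, or 2.18 ± 0.107 (SD, n = 2). Class I had 1.25 and 1.35, or 1.30 ± 0.0693 (SD, n = 2). Class III had 0.652 and 0.699, or 0.675 ± 0.0327 (SD, n = 2). No class overlapped another in its library values.

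The difference of class II minus class I was 0.854 in replicate 1 and 0.908 in replicate 2 (mean 0.881, SD 0.0378, n = 2), a ratio of 1.68 and 1.67. Class II minus class III gave 1.45 and 1.56, a ratio of 3.23 in each library. Class I minus class III gave 0.598 and 0.649, a ratio of 1.92 and 1.93. Each of these differences was more than 10 times the SD of that difference between the libraries. That SD holds only the spread between these 2 libraries, not the variation along the regions. With 2 libraries of 1 group, an exact two-sided sign-flip permutation test cannot go below p = 0.5, so none of these differences was tested. Class II makes up 22.2% of the length of the MHC and held 36.3% and 36.2% of its reads, class I makes up 52.2% and held 50.7% and 50.9%, and class III makes up 25.7% and held 13.0% of the reads in each library.

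The surroundings place these levels. To leave out assembly gaps, they were compared over 1 kb bins listed in either library. On this basis the whole MHC stood at 1.35 (replicate 1) and 1.45 (replicate 2), against 0.674 and 0.722 over the rest of chromosome 6. Class II stood at 2.20 and 2.36 and class I at 1.28 and 1.38, both above the autosomal values of 0.907 and 0.970. Class III, at 0.718 and 0.768, lay below the autosomes and close to the rest of its chromosome. These differences from the surroundings were not tested, and with no input library neither copy number nor alignability is corrected in them.

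**Figure D1:**
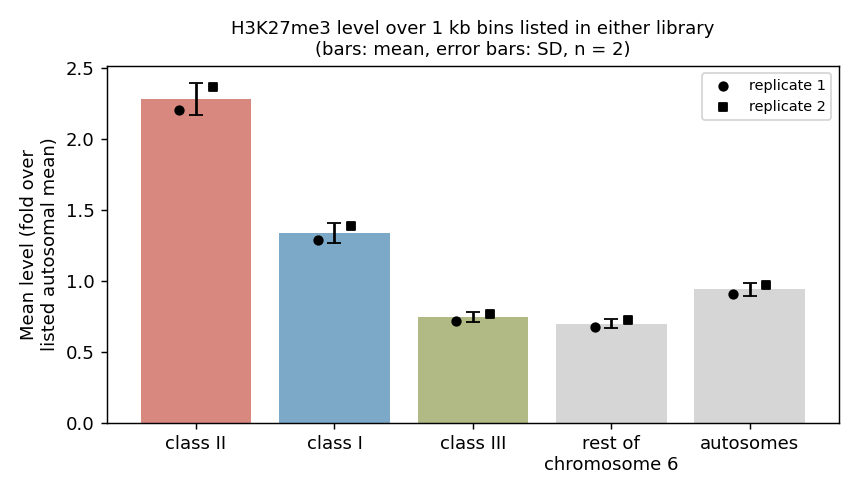
Mean H3K27me3 level (fold over the mean of listed autosomal 1 kb bins) over bins listed in either library, for the 3 MHC classes, the rest of chromosome 6 and the autosomes; bars are means, error bars SD (n = 2), circles replicate 1 and squares replicate 2. Class II stands highest at 2.20 and 2.36, and class III at 0.718 and 0.768 lies beside the rest of chromosome 6 at 0.674 and 0.722.

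A bin of 5 kb was called enriched when its count passed a one-sided Poisson test against the library mean, Benjamini-Hochberg adjusted over the 5 kb bins of the autosomes and X, and reached at least 2-fold in both libraries. Of tested bins, those with a read in either library, 66 of 150 in class II (44%), 78 of 358 in class I (21.8%) and 10 of 167 in class III (5.99%) were enriched. The background was 12.8% of all 562365 tested bins and 7.96% of those of chromosome 6. The enriched share of class II was thus above both, that of class I also, and that of class III below both. Replicate 1 alone called 66, 81 and 11 bins in class II, class I and class III, with a background of 13.2%, and replicate 2 alone called 70, 83 and 13, with a background of 14.1%.

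The opposite end of the scale showed the same order. Bins under 0.5-fold in both libraries made up 14% of tested bins in class II, 43.6% in class I and 52.7% in class III. The background was 59.2% over all tested bins and 62.1% on chromosome 6. All 3 classes lay below the background, class II farthest. The median 5 kb bin of class II stood at 1.54 and 1.64, that of class I at 0.595 and 0.669 and that of class III at 0.323 and 0.336.

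Class II and class I differed in how much of their length was enriched and in the bins between, and hardly in the height of enriched bins. Enriched bins averaged 3.70 in replicate 1 and 3.98 in replicate 2 in class II, and 3.69 and 3.97 in class I. In class III the 10 enriched bins averaged 2.64 and 2.84. These heights are bounded below by the 2-fold minimum that chose the bins. The remaining tested bins averaged 0.899 and 0.951 in class II, 0.569 and 0.616 in class I and 0.563 and 0.602 in class III, so outside the enriched bins class I and class III were close. Enriched bins held 76.4% and 76.7% of the reads of class II, 64.4% and 64.2% of those of class I and 23.0% and 23.1% of those of class III.

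**Figure D2:**
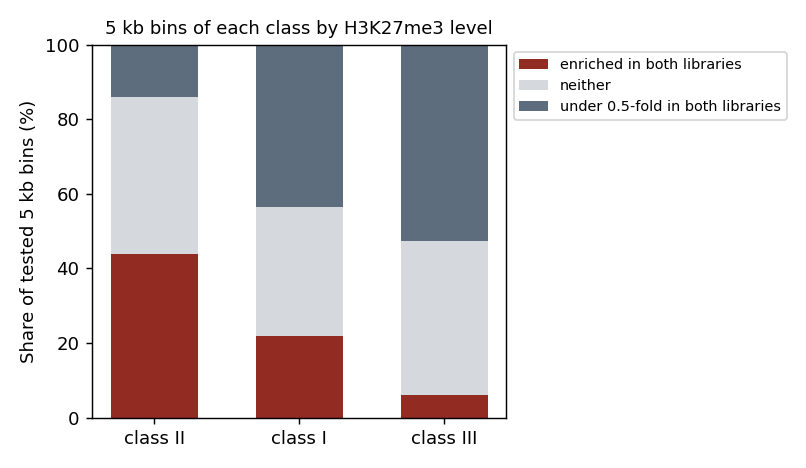
Share of tested 5 kb bins (%) in each class that were enriched at least 2-fold in both libraries, under 0.5-fold in both, or neither. The enriched share is 44% in class II, 21.8% in class I and 5.99% in class III, and the share under 0.5-fold is 14%, 43.6% and 52.7%.

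How far class III carried the mark depended on the threshold. At least 3-fold in both libraries left 42 bins in class II, 48 in class I and 2 in class III, with a background of 7.46%. Without a fold minimum, 93, 119 and 37 bins passed the Poisson test, which is 62%, 33.2% and 22.2% of tested bins with a background of 20.1%. Class III then lay near the background. Over 5 kb bins with every 1 kb bin listed in both libraries, 66 of 132 in class II, 77 of 224 in class I and 10 of 90 in class III were enriched, with a background of 21.1%. In 1 kb bins the enriched numbers were 295 of 726, 365 of 1743 and 47 of 800 with a background of 12.2%.

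Along the locus the mark was gathered in a few blocks, separated by stretches near 0. When enriched bins up to 1 bin apart were joined, 32 domains resulted, with a median length of 10 kb; 13 were single bins and 12 reached 20 kb. Across chromosomes 1 to 22 and X the median was also 10 kb, and 35.1% of domains reached 20 kb, against 37.5% in the MHC. Those chromosomes held 12674 domains over 562365 tested 5 kb bins, a lower density than the 32 over 675 tested bins of the MHC. The number per Mb was alike in the 3 classes, at 9.21 in class II, 9.50 in class I and 9.09 in class III, with each domain counted in the class that holds most of it. Their length was not alike: class II had 7 domains over 385 kb with a median of 40 kb, class I had 17 over 465 kb with a median of 10 kb, and class III had 8 over 45 kb with a median of 5 kb. Domain levels given below are means over the enriched bins alone, without the joined gaps.

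**Figure D3:**
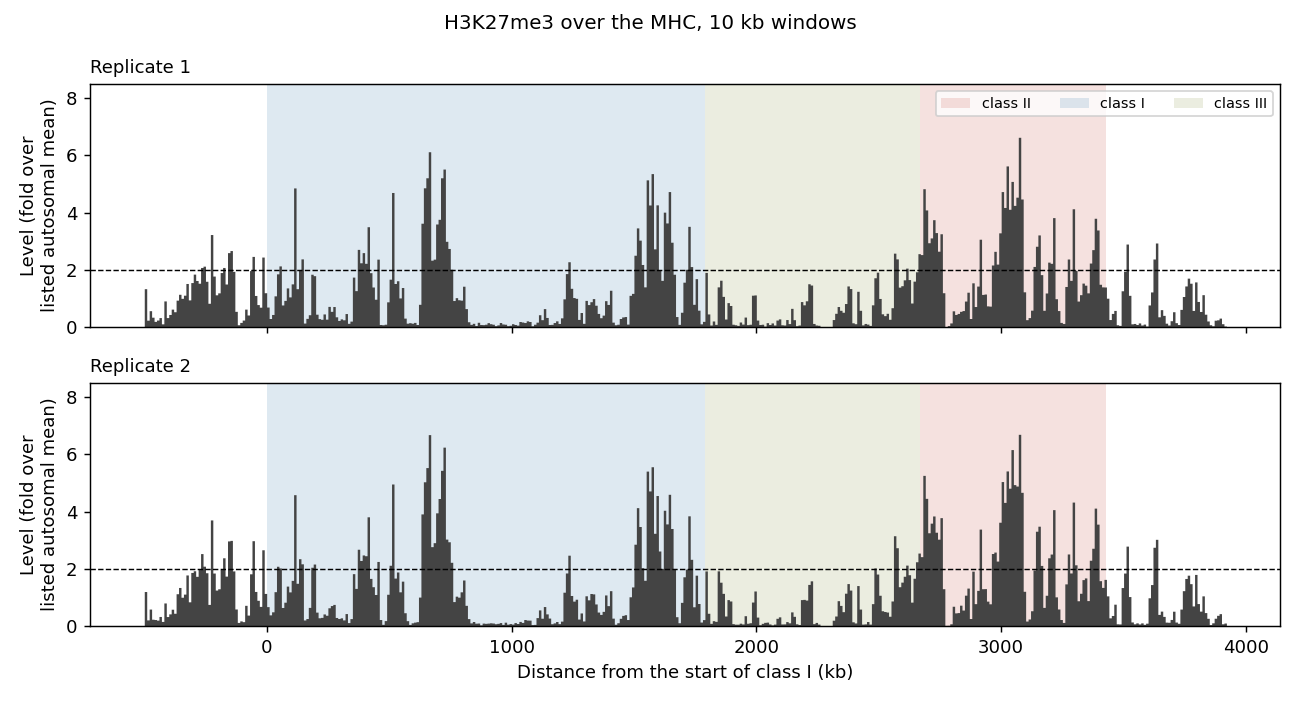
H3K27me3 level (fold over the mean of listed autosomal 1 kb bins) in windows of 10 kb along the MHC and 500 kb on either side, by distance from the start of class I in kb; shading marks the classes and the dashed line the 2-fold minimum. Both replicates show tall blocks in class I and class II, and class III low except towards class II.

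In class II, 6 of the 7 domains reached 20 kb. The tallest of them ran over 125 kb from 32650001 to 32775000, and its 23 enriched bins averaged 4.51 and 4.87. It rose towards its end: its last 4 bins of 5 kb stood at 5.31, 6.04, 7.21 and 8.10 in replicate 1 and at 5.38, 6.59, 6.81 and 8.47 in replicate 2. The next bin, from 32775001, stood at 0.845 and 0.879. The last enriched bin, from 32770001 to 32775000, was the highest 5 kb bin of the MHC in both libraries, and within it the 1 kb bin from 32771001 to 32772000 held 221 and 438 reads, a level of 10.0 and 11.7.

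The first domain of class II covered 100 kb from 32355001 to 32455000, and its enriched bins averaged 3.51 and 3.77. It crossed the boundary with class III by 1 bin. Of its highest 5 kb bin, from 32370001, the level was 5.68 and 6.08. It ended where listing ended: the bin from 32450001 to 32455000 stood at 2.35 and 2.61, the next at 0.0454 and 0.0160, and that from 32460001 to 32465000 held no read in either library. Whether the mark reaches farther cannot be read from these counts.

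The other long domains of class II followed each other towards its end. They covered 35 kb from 32820001 to 32855000 (2.99 ± 0.159), 30 kb from 32880001 to 32910000 (3.25 ± 0.175), 40 kb from 32960001 to 33000000 (3.17 ± 0.159) and 45 kb from 33055001 to 33100000 (3.40 ± 0.0986), each as SD with n = 2. All were below the 125 kb domain in both libraries. Between the 2 longest domains lay the poorest part of class II. The 100 kb from 32460001 to 32560000 had a level of 0.495 and 0.550 with 0 of 20 bins enriched, while 72% and 76% of its 1 kb bins were listed.

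Among windows of 20 kb with at least 90% of bins listed in both libraries, the 3 highest of class II all lay in or at the end of the 125 kb domain. They started at 32760001 (5.55 and 5.69), 32720001 (4.60 and 5.49) and 32700001 (4.90 and 4.87). The 3 lowest started at 32800001 (0.461 and 0.397), 32500001 (0.459 and 0.472) and 32520001 (0.564 and 0.650). The highest and lowest of these windows thus lay 40 kb apart, start to start, and differed by more than 10-fold in each library. The 90% limit kept 32 of 38 windows in class II, 59 of 89 in class I and 17 of 44 in class III. Bins poor in the mark are listed less often, so the limit also left out low windows. The lowest windows named for each class are therefore not comparable between the classes.

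Class I held 2 domains of at least 100 kb, and these contained 47 of its 78 enriched bins (60.3%). The longest of the MHC covered 160 kb from 31195001 to 31355000, and its 25 enriched bins averaged 3.95 in replicate 1 and 4.30 in replicate 2. The other covered 130 kb from 30320001 to 30450000, and its 22 enriched bins averaged 4.37 and 4.79, with the highest 5 kb bin, from 30410001, at 6.66 and 7.73. At its start the level climbed over 4 bins of 5 kb from 30310001, with 0.127, 1.46, 2.73 and 4.53 in replicate 1 and 0.213, 1.82, 3.01 and 4.83 in replicate 2. Class II had a like concentration, with 40 of its 66 enriched bins (60.6%) in its 2 domains of at least 100 kb.

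The smaller domains of class I of at least 20 kb were 30 kb from 30195001 to 30225000 (3.28 and 3.67), 20 kb from 30065001 to 30085000 (3.76 and 3.70), 20 kb from 30095001 to 30115000 (3.28 and 3.48) and 20 kb from 31410001 to 31430000 (3.14 and 3.36). A domain of only 10 kb, from 29800001 to 29810000, was as tall as the long ones at 4.86 in replicate 1 and 4.59 in replicate 2. The highest 20 kb windows of class I with at least 90% of bins listed started at 30330001 (5.04 and 5.29), 31250001 (4.81 and 5.15) and 30390001 (4.49 and 4.95), all within the 2 long domains. The lowest of them started at 29990001 (0.270 and 0.257), 31150001 (0.236 and 0.318) and 29970001 (0.295 and 0.288). Windows of class I that the listing limit left out included lower ones. That from 30770001, with 8 and 14 of its 20 bins listed, stood at 0.0727 and 0.0613.

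**Figure D4:**
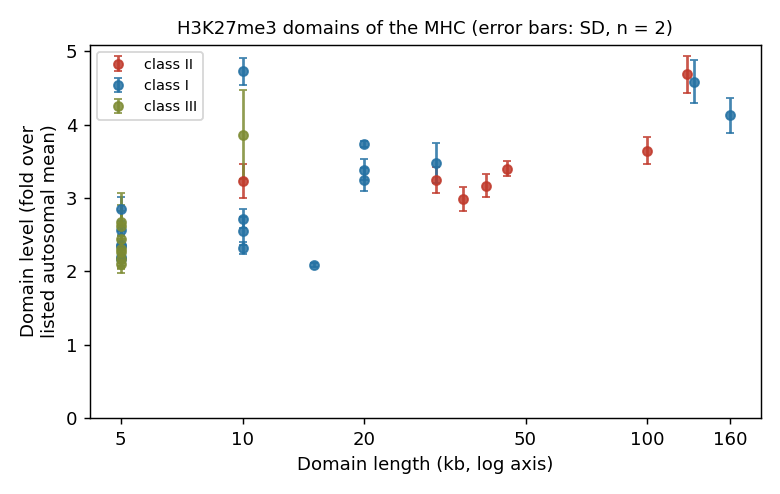
Length (kb, log axis) and level of the enriched bins (fold over the mean of listed autosomal 1 kb bins, error bars SD, n = 2) of the 32 MHC domains, by class. The 8 domains of class III are 5 or 10 kb long, while class II and class I each have 2 domains of 100 kb or more, at levels of 3.64 to 4.69.

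Between the 2 long domains of class I lay the longest run under 0.5-fold of the MHC. It covered 290 kb from 30510001 to 30800000, at 0.118 (replicate 1) and 0.129 (replicate 2). The 100 kb segments from 30490001, 30590001 and 30690001 stood at 0.299, 0.0982 and 0.137 in replicate 1 and at 0.337, 0.103 and 0.139 in replicate 2. Class I thus held both the longest domain and the longest depleted run. It had 4 runs of at least 50 kb under 0.5-fold, 460 kb in all, class III had 4 with 360 kb, and class II had 0, its longest being 35 kb. Of these, 2 are mostly unlisted and so cannot be read as depleted: 85 kb of class III from 31920001 to 32005000, with 24.7% and 30.6% of bins listed, and the 35 kb of class II from 32455001 to 32490000, with 28.6% and 31.4%.

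Class III was low over most of its length and higher towards class II. Its first 700 kb, up to 32180000, averaged 0.458 and 0.485, with 5 of 140 bins enriched. Its last 180 kb had 1.41 and 1.53 with 5 of 36 bins enriched, and this division was chosen after the levels had been seen. The tallest domain of class III, 10 kb from 32255001 to 32265000, stood at 3.44 and 4.29, and the other 7 were single bins with levels of 2.10 to 2.67. The highest 20 kb windows of class III with at least 90% of bins listed started at 32340001 (2.25 and 2.40), 32260001 (1.89 and 2.06) and 32300001 (1.86 and 1.97). The lowest of the 17 windows listed that fully started at 32200001 (0.432 and 0.528), 31660001 (0.607 and 0.484) and 32020001 (0.652 and 0.810). Most of the 44 windows of class III were left out by this limit, and they included lower ones. That from 31600001, with 11 and 15 of its 20 bins listed, stood at 0.0704 and 0.0719.

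The class boundaries differed in how the level changed across them. In the 100 kb after the boundary from class III to class II the level was 3.17 and 3.43, against 1.75 and 1.87 in the 100 kb before it. After the boundary from class I to class III it was 0.800 and 0.876, against 1.31 and 1.44 before it. Before class I, the 100 kb outside stood at 1.20 and 1.27 and the first 100 kb inside at 1.07 and 1.10, so the mark did not begin with the class I region. The 500 kb before class I had 1.18 and 1.27 and the 500 kb after class II had 0.665 and 0.705.

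Listing differed between the classes as well. In class II 94.3% of 1 kb bins were listed in replicate 1 and 94.7% in replicate 2, in class I 87.8% and 94.5%, and in class III 77.8% and 86.1%. Chromosome 6 as a whole had 86.8% and 93.0%. The deeper replicate 2 thus listed more bins in class I and class III but hardly more in class II. Replicate 2 was also thinned read by read, at random, to the total of replicate 1. It then listed 92.3% of class I and 82.6% of class III, above replicate 1, and 94.1% of class II, just below it. The cause of the difference between the libraries was not tested. A bin poor in the mark is listed less often at a given depth, so this share mixes the level of the mark with the alignment of reads. Over the run of 290 kb under 0.5-fold in class I, 65.5% of bins were listed in replicate 1 and 84.1% in replicate 2.

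Bins without a read in both libraries were arranged differently. They made up 4.47% of class II (34 bins), 2.63% of class I (47 bins) and 9.09% of class III (80 bins), so class I had the smallest share and class II the fewest bins. In class I these were scattered, with 36 of 40 runs being single bins and the longest covering 5 kb, from 29844001 to 29849000. In class III a single run of 47 kb, from 31949001 to 31996000, held 58.8% of them, and a run of 7 kb from 31997001 to 32004000 followed. In class II 26 of the 34 bins lay in 5 runs of at least 3 kb, which included 8 kb from 32460001 to 32468000, 8 kb from 32470001 to 32478000 and 4 kb from 32616001 to 32620000.

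In the run of 47 kb, a count of 0 allows up to 3 reads, which is up to 0.00290-fold for replicate 1 and 0.00170-fold for replicate 2, counting error only. The depleted run of class I, by contrast, stood at 0.118 and 0.129. The 50 kb from 31949001 to 31999000 held 1 listed bin of 50 in each library. The least listed 50 kb of class II, from 32450001 to 32500000, held 23 and 26, with a level of 0.395 and 0.431, and that of class I, from 30651001 to 30701000, held 29 and 34, with a level of 0.0827 and 0.0922. Neither an input library nor a measure of alignability was used here, so why these bins are empty was not tested. Of the 84 contig names in the files, 0 held a haplotype label and 0 matched the names of the MHC haplotype contigs of hg19.

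**Figure D5:**
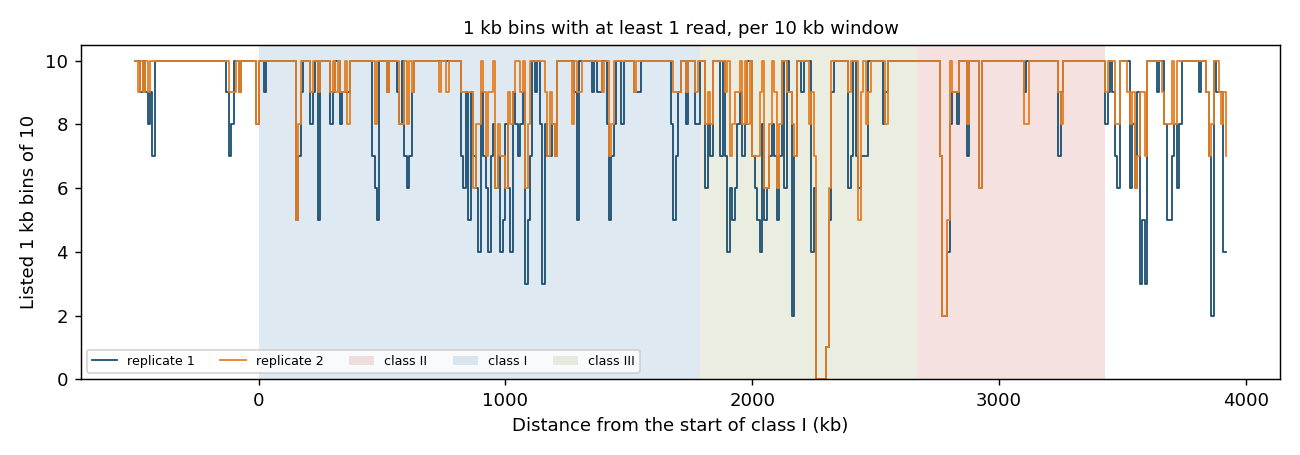
Number of 1 kb bins with at least 1 read among the 10 bins of each 10 kb window, by distance from the start of class I in kb, for both replicates. Both lines drop to 0 together in class III, in the run of 47 kb, and fall together near the start of class II, whereas in the depleted run of class I replicate 1 lies mostly below replicate 2.

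In proportion to its level, class III was lowered most by counting unlisted bins as 0. Over listed bins alone the level was 2.23 and 2.38 in class II, 1.42 and 1.43 in class I and 0.838 and 0.811 in class III, so the order of the classes was the same. Within each class the libraries ranked the bins alike: across 5 kb bins Pearson's r of log2(level + 0.1) was 0.987 in class II (152 bins), 0.980 in class I (358 bins) and 0.971 in class III (176 bins), and Spearman's rho was 0.990, 0.975 and 0.945. These are descriptions across neighbouring bins, which are not independent and share alignability in both libraries.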

How the data were processed

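H3K27me3 ChIP-seq counts of 2 HCT116 libraries, 1 group, were used. Each library's deposited table gives whole read counts for 1 kb bins, as the column description deposited with the series says; bins without reads are left out of it. The submitters' processing notes name BWA 0.7.12 and hg19. How reads were counted, and how duplicates, mapping quality and reads with several places were treated, is not given in the sources used here.

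From these counts, levels, listed shares and enriched bins were computed in 1 kb and 5 kb bins on 1-based coordinates. Enrichment needed a Poisson adjusted p under 0.05 and a level of at least 2; at this depth the fold minimum decides most calls. The enrichment call was tested on simulated counts that held counting error only, without broad domains, alignment gaps or copy number changes. Each domain has the level of its enriched bins. Windows were named by rule: domains of at least 20 kb, and the 3 highest and 3 lowest 20 kb windows per class with at least 90% of bins listed. The longest unlisted runs were named too; other bins were chosen after their values were seen. The regions and gene lists were chosen with earlier results of these data known. The gene and promoter tables are on GRCh38, so the planned levels at gene starts were not run. A gene of the planned class I list is not reported here. Promoter entries matched 18 of 19 class II, 6 of 7 class I and 14 of 17 class III genes. Alternatives were other scalings, boundaries, bins, fold minimums, gaps, listing limits, thinning and each replicate left out. The tools were scipy 1.17.1, numpy 2.4.6 and pandas 2.3.3 in Python 3.11.15, with matplotlib 3.10.9 for figures. The Poisson p-values cover counting error within a library only, and SDs measure the spread between these libraries, which may be technical.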

Additional observations from a re-analysis of the deposited data

How the results depend on the processing

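The order class II, class I, class III held in all 9 settings of the mean level, 5 of the listed share and 7 of the enriched share, the reported ones included, that gave a value for the 3 classes. Rescaling divides all 3 classes of a library by the same value, so it could not change the order of the mean levels. Leaving a replicate out gave back the order of the other library. With a bin counted as listed if either library held a read, class I came before class II. The unlisted share was then 2.63% in class I, 4.47% in class II and 9.09% in class III. Values counted as unchanged within 1 SD of the replicates, or within 1.5 times for enriched shares and domain counts; by this 14 of 43 alternatives left a value unchanged and 29 moved it, with the replicates left out not counted, since 2 libraries keep such a level or listed share within 1 SD by construction. The mean levels of class II, class I and class III, 2.18, 1.30 and 0.675, became 2.31, 1.43 and 0.825 over listed bins only, 5.60, 3.33 and 1.73 scaled to the median listed autosomal bin, 2.87, 1.71 and 0.890 scaled to chromosome 6, and 2.32, 1.38 and 0.720 scaled to autosomal bins listed in either library. The last setting and the omission of the domain across the boundary were added after the data were seen. With 50 kb trimmed from each end class II became 2.05 and class III 0.613; without the highest 1% of bins class III became 0.633; without the domain across the boundary class II became 2.00. With a replicate left out the levels ranged from 2.10 to 2.26, 1.25 to 1.35 and 0.652 to 0.699, the listed shares from 94.3 to 94.7%, 87.8 to 94.5% and 77.8 to 86.1%, and the enriched shares from 44 to 46.7%, 22.6 to 23.2% and 6.59 to 7.78%. With at least 5 reads required, the listed shares of 94.5, 91.1 and 82.0% became 89.9, 73.4 and 58.6%, and with replicate 2 thinned that of class II became 94.2%. The enriched shares of 44, 21.8 and 5.99% became 28, 13.4 and 1.20% at 3-fold; without a fold minimum class I became 33.2% and class III 22.2%, and over completely listed bins 34.4% and 11.1%. The 32 domains became 57 without joining gaps and 74 in 1 kb bins with gaps of at most 5 bins, and 32 to 33 with a replicate left out. The cause was not tested for any of them. No paired analysis was possible because both libraries belong to 1 group, so no groups share replicate numbers; the classes were compared within each library. Depth limits the low bins most, since counting error is already 9.53% and 7.30% in a 5 kb bin at a level of 1.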
